A study of Homo sapiens with 9 samples.

Results

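The miRNA entries described here are those whose names carry a number from 1000 to just below 4000, the stretch of the miRNA catalogue that was filled largely by deep sequencing. A probe was a member if it named a single human miRNA in that range and gave a normalized value on at least 2 of the 9 arrays. A short list of numbers was left out with its 22 probes, so rankings among the members do not cover these probes. Of the 442 probes that remained, 109 met this rule, out of 642 miRNA probes detected on at least 2 arrays and 2019 miRNA probes in all. The members were thus chosen by detection over all libraries together, and the levels in cells and fractions are described within that choice. HMC-1 is a human mast cell line that was established from a mast cell leukaemia. All 9 libraries came from HMC-1 cultures for which the labels name no treatment: 3 of cellular RNA, 3 of RNA from the dense part of a sucrose gradient of released material (HD) and 3 of RNA from its light part (LD). Per the design text of the series, libraries with the same number came from the same culture, so that 3 cultures paired the groups, and all cultures were of 1 cell line. Each library was hybridised to its own array, and its signal is given in the authors' normalized units, in which the median detected miRNA probe of every array is 25.

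Most miRNAs are cut from hairpins by DROSHA and then DICER, and the short strand that is kept guides Argonaute proteins to messenger RNAs that pair with its seed, bases 2 to 8. Several entries with numbers in this range are of other origins: mirtrons are short introns that fold into a hairpin once they are spliced out and so bypass DROSHA, while other entries lie in transposable elements or within other small RNAs. Cells also release RNA, in vesicles and in particles that a density gradient can separate, and mast cells are a well studied source of such RNA.

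Mature sequences of members with large differences between groups, and of the near-identical or same-seed members set against them, are given first, because each probe reads a short sequence. miR-1234-5p, miR-1273g-3p, miR-3622a-5p and miR-3607-3p, which also differed strongly, are named without a sequence. They were taken from RefSeq (GRCh38.p14), are written 5′ to 3′, and have the seed in capitals. The first 9 were higher in HD than in cells, the next 3 were lower there, the next 2 are the arms of 1 hairpin, and the last 6 are members without a called change in HD or members of seed groups.
miR-1909-3p: cGCAGGGGccgggugcucaccg
miR-1229-5p: gUGGGUAGgguuugggggagagcg
miR-3158-5p: cCUGCAGAgaggaagcccuuc
miR-2861: gGGGCCUGgcggugggcgg
miR-3619-3p: gGGACCAUccugccugcugugg
miR-1224-5p: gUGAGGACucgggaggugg
miR-1914-3p: gGAGGGGUcccgcacugggagg
miR-3141: gAGGGCGGguggaggagga
miR-1227-5p: gUGGGGCCaggcggugg
miR-1973: aCCGUGCAaagguagcaua
miR-3135b: gGCUGGAGcgagugcaguggug
miR-1587: uUGGGCUGggcuggguuggg
miR-1228-5p: gUGGGCGGgggcaggugugug
miR-1228-3p: uCACACCUgccucgcccccc
miR-3178: gGGGCGCGgccggaucg
miR-3620-5p: gUGGGCUGggcugggcugggcc
miR-1268a: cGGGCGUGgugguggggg
miR-1268b: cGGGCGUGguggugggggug
miR-3180: uGGGGCGGagcuuccggag
miR-3180-3p: uGGGGCGGagcuuccggaggcc

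Among these sequences, miR-2861 was 89.5% G and C with a longest run of 4 G, miR-1227-5p was 82.4% G and C with a run of 4 G, and miR-1229-5p was 66.7% G and C with a run of 5 G. miR-3178, whose signal did not pass the test in any comparison, was 88.2% G and C with a run of 4 G. Of the members that fell, miR-1973 was 47.4% G and C, miR-1587 70.0% and miR-3135b 68.2%, with longest runs of 2, 3 and 2 G. miR-3158-5p, which rose, was 61.9% G and C and held no run of G longer than 2. Over all 2370 mature human names in the RefSeq table, the median content of G and C was 52.2%, and 278 names (11.7%) held the run GGGG, searched on the miRNA strand only. A check of base composition over the members was void: sequences were matched for 86 of the 109 members (78.9%) and for 33 of the 46 members that were tested (71.7%), below the 80% needed.

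The members lie in many places of the genome. miR-1229-5p (chr5:179798323-179798346, minus strand) lies within the span of MGAT4B, which encodes a glycosyltransferase. miR-1224-5p (chr3:184241405-184241423, plus strand) lies within VWA5B2, miR-1227-5p (chr19:2234133-2234149, minus strand) within PLEKHJ1, and both arms of miR-1228 (chr12:57194504-57194524 and chr12:57194555-57194574, plus strand) within LRP1, the gene of an endocytic receptor. miR-1909-3p (chr19:1816169-1816190, minus strand) lies within REXO1 and miR-1914-3p (chr20:63941474-63941495, minus strand) within UCKL1. miR-2861 (chr9:127785971-127785989, plus strand), first studied in mouse osteoblasts, and miR-3141 (chr5:154596045-154596063, minus strand) lie in no gene span of the table. miR-3158-5p has 2 copies that face each other within DPCD (chr10:101601429-101601449 on the plus strand and chr10:101601465-101601485 on the minus strand), so that 1 probe reads both. miR-1973 (chr4:116299750-116299768, plus strand) lies within MTRNR2L13, a pseudogene with sequence of the mitochondrial ribosomal RNA. Whether these positions are exonic or intronic was not analysed here.

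Detection set the frame for every later value. On the cell arrays 56, 58 and 55 of the 109 members were detected, on the HD arrays 56, 64 and 52, and on the LD arrays 37, 44 and 41. Cells and HD thus overlapped in the number of members detected, at 56.3 ± 1.53 and 57.3 ± 6.11 (mean ± SD, n = 3 each), and every LD array lay below every other array, at 40.7 ± 3.51. The arrays also differed in how many miRNA probes they detected at all, which was 440 to 506 for cells, 254 to 329 for HD and 303 to 368 for LD. Members made up 11.5 to 12.5% of the detected probes in cells, 17.3 to 20.5% in HD and 11.1 to 12.6% in LD, which is a description, since detection chose the members.

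**Figure D1:**
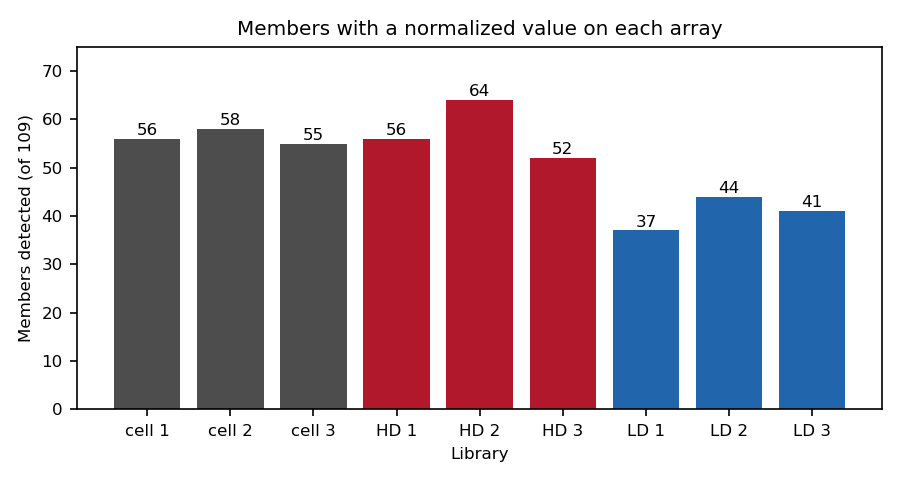
Number of the 109 members with a normalized value on each of the 9 arrays (y axis, members; x axis, library), with cells in grey, HD in red and LD in blue. The LD arrays show 37 to 44 members, the cell arrays 55 to 58 and the HD arrays 52 to 64.

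At the edge of the rule, the 42 members detected on exactly 2 arrays had values from 9.81 to 57.8 with a median of 14.7. The 111 probes just outside it, detected on 1 array, had values from 10.3 to 83.7 with a median of 14.9. The lowest detected value of an array lay between 9.60 and 13.5, so that both sets sat close to the limit of detection.

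The same arrays gave a check of the labels and a picture of the libraries. Of 8 miRNAs of blood and mast cells, 7 were detected on all 3 cell arrays, with a summed signal of 3685 to 7924, against 13.2 to 56.0 in HD and 640 to 1422 in LD. Of the 2 red cell miRNAs, miR-451a and miR-144-3p, the summed signal was 0 to 52.4 in cells, 49.6 to 581 in HD and 32.9 to 95.4 in LD, and of 6 epithelial miRNAs none was detected on all 3 arrays of any group, with sums of 16.4 to 46.1 in cells, 0 to 50.5 in HD and 0 to 29.0 in LD. The endothelial miR-126-3p summed to 49.4 to 117 in cells, was undetected in HD and gave 13.7 to 47.4 in LD. The liver, muscle and neural lists were undetected in HD and summed to at most 10.4, 15.8 and 68.1 in any library. The part of these other sources in the results below was not tested. In bulk samples of this kind, fewer cells or particles and less RNA in each cannot be told apart. The cell libraries shared 1 slide, as the stamps of the array files give it, while the HD libraries shared a slide with LD 1 and the remaining LD libraries were on another, so that slide and cell group cannot be told apart.

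A test across the whole table was possible for the 334 miRNA probes that a whole group of 3 arrays detected, and 46 members were among them. Of these 46, 18 were detected on all 9 arrays. A further 12 entered only because all HD arrays detected them, 7 only through the cells and 1, miR-3180, only through LD. Members that entered through a single group had to be high there, so counts over the 46 describe the list and support nothing. In the fits below, an undetected value stands at the lowest detected value of its array. A fold against a group with no detected array is given as at least that fold, a bound that holds within the authors' scaling only.

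In HD against cells, the largest rises in the dense extracellular fraction were those of miR-1234-5p, miR-1909-3p, miR-1229-5p and miR-3158-5p. The largest falls were those of miR-1273g-3p and miR-1973. The 46 tested members include the 12 that entered only through HD, miR-3158-5p among them, so the counts here are a description. Of the 46 members, 27 were called higher in HD (limma, adjusted p under 0.05), where 30.5% of all tested probes were, and 7 were called lower, where 49.4% of all were. The remaining 12 did not pass. The median log2 change was 1.09 over the members and -0.70 over all tested probes. Of the latter, 172 were numbered below 1000 or let-7, with a median of -2.18, 12.2% called higher and 73.8% lower. Entries numbered from 4000 upward stood closer to the members, of which 58.7% were higher and 15.2% lower. Their lower-numbered part (39 probes) had a median of 0.41, with 46.2% higher and 38.5% lower. Their higher-numbered part (56 probes) had 0.95, with 55.4% and 14.3%. A difference between members and these parts was not tested. All 34 called members moved the same way in all 3 cultures, and their folds ran from 1.91 to 24.3 upward and from 2.41 to 174 downward. The groups did not overlap for 24 of the higher and all 7 of the lower members, against 29.6% and 49.1% of all probes.

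These directions depend on how arrays are set against each other. When the probes detected on all 9 arrays were given equal means, the median of all probes shifted by -1.53 and 14 members were called higher and 19 lower. Scaling on spike controls shifted it by 2.93 and gave 42 higher and 2 lower, and without scaling 18 were higher and 4 lower. A scaling moves all probes of an array together, so the 1.79 by which the members' median stood above that of all tested probes could not change with it. That distance did depend on the filter and on the undetected values. Over all probes detected on at least 2 arrays, the medians of members and of all probes were 0.30 and 0.14. Over probes detected on all 9 arrays they were 1.72 and 1.49, and with undetected values left missing 1.32 and 0.34. The calls that held under every one of the 26 alternatives in which they could be tested were 13 rises, among them the 8 largest, and the falls of miR-1273g-3p and miR-1973. Of these rises, miR-1224-5p, miR-3141, miR-3158-5p, miR-3619-3p and miR-3622a-5p had entered only through HD, so for them holding supports nothing. Both falls were of members that had entered through cells and LD.

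**Figure D2:**
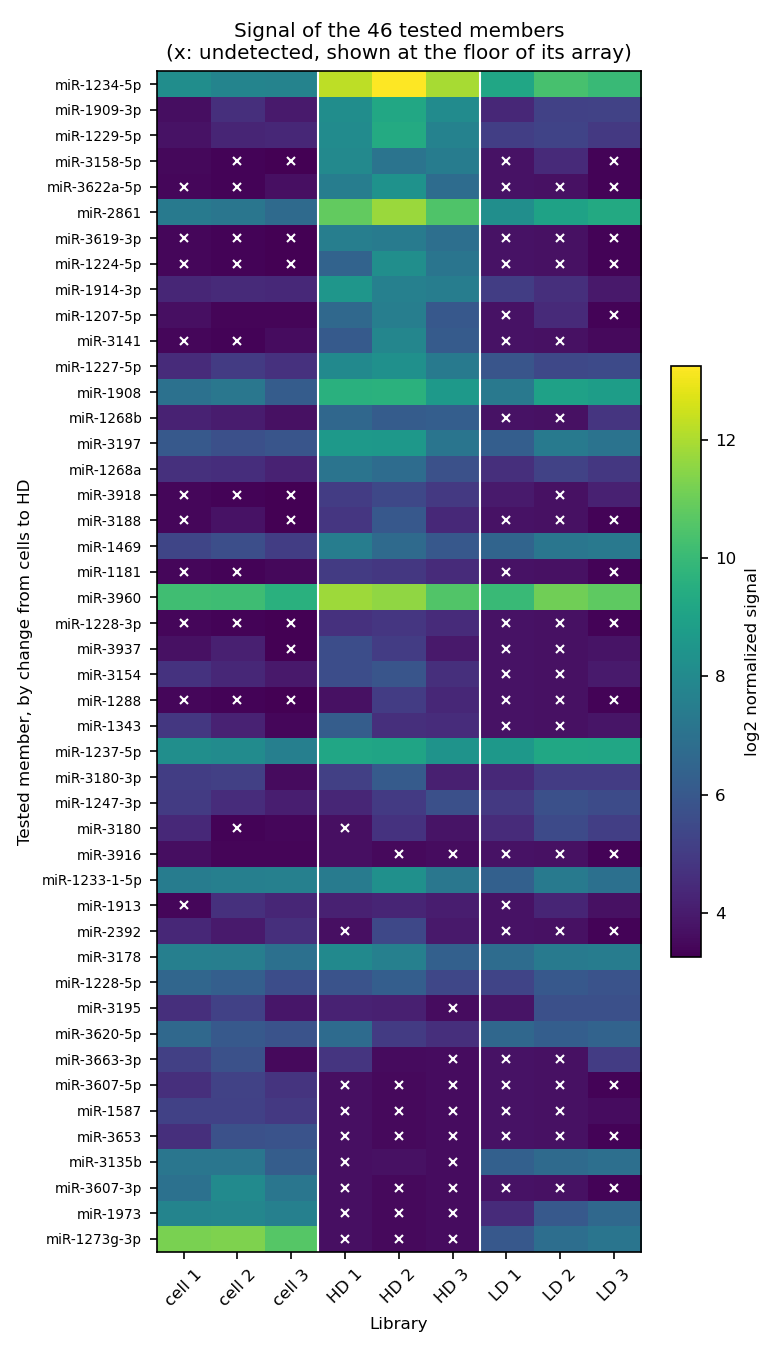
Log2 normalized signal (colour) of the 46 tested members (rows, ordered by their change from cells to HD) in the 9 libraries (columns), with crosses where a probe was undetected and stands at the floor of its array. The upper rows are brightest in the 3 HD columns, and the 7 lowest rows are undetected on all or all but 1 of the HD arrays.

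The mirtron list, set by miRNA number, was the largest of the named groups, with 16 members, of which 8 could be tested. Whether each of its hairpins is released by splicing was not tested. In HD, 6 of the 8 were called higher and none lower, with a median log2 change of 2.24, against 30.5% higher over all probes. With the shared-probe scaling 4 were called higher and 2 lower. Among the 8, miR-1224-5p and miR-1228-3p had entered only through HD. miR-1234-5p read 285, 215 and 210.2 in cells 1 to 3, 4868, 9689 and 3906.6 in HD, and 569, 1303 and 1049 in LD. Every HD library lay above every LD library, and every LD library above every cell library. Its mean rose 24.3-fold from cells to HD (log2 change 4.60 ± 0.38 SE, adjusted p = 1.33e-06, higher in 3 of 3 cultures), the largest rise among the members.

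miR-1229-5p read 13.4, 19.8 and 20.5 in cells and 268, 664 and 209 in HD. The groups were far apart, with HD 2 the highest library, and the rise was 19-fold (log2 change 4.25 ± 0.36 SE, adjusted p = 1.54e-06). miR-1224-5p, a mirtron that is conserved among mammals, was undetected in all cell libraries and in all LD libraries and read 87.6, 297 and 142.1 in HD. Its HD mean was at least 15.1-fold above the cells' floor (log2 change 3.92 ± 0.38 SE, adjusted p = 3.83e-06). miR-1227-5p read 22.6, 32.0 and 25.4 in cells and 257, 309 and 163 in HD, again with no overlap, and rose 8.90-fold (adjusted p = 4.81e-06).

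Smaller differences completed the mirtrons. miR-1237-5p rose 1.91-fold (log2 change 0.93 ± 0.33 SE, adjusted p = 0.0218), from 294, 270.1 and 193 in cells to 581, 540 and 338 in HD. That call ended when cell 2 (log2 change 0.89), cell 3 (0.82), HD 1 (0.74) or HD 2 (0.92) was left out, and with the shared-probe scaling it turned to -0.60 and was not called. miR-1228-3p was undetected in cells and read 26.0, 28.7 and 22.2 in HD, at least 2.49-fold higher (adjusted p = 0.000908), and its change turned to -0.21 with that scaling. miR-1228-5p and miR-1233-1-5p were not called, with log2 changes of -0.33 ± 0.33 and 0.11 ± 0.31 (SE).

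Outside the mirtrons, the rises in HD came from members of unlike origin. miR-1909-3p read 12.5, 24.4 and 15.7 in cells and 283, 601 and 267 in HD. All HD libraries lay above all cell libraries, and the rise was 21.2-fold (log2 change 4.40 ± 0.31 SE, adjusted p = 4.6e-07). miR-3158-5p was detected in 1 cell library at 11 and read 249, 136 and 175 in HD. That was a 17.7-fold rise (adjusted p = 1.43e-06), with the other cell values standing at the floor.

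miR-2861 read 165, 147 and 105 in cells and 1852, 3434 and 1432 in HD. There was no overlap, and the rise was 15.3-fold (log2 change 3.93 ± 0.39 SE, adjusted p = 4.68e-06). miR-3960, which is encoded in a cluster with miR-2861, read 1175, 1129 and 766 in cells and 3488, 3038 and 1489 in HD, a 2.49-fold rise (adjusted p = 0.00792). The miR-3960 groups did not overlap either, and its change turned to -0.21, not called, with the shared-probe scaling.

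miR-3622a-5p was detected in 1 cell library at 12.9 and read 178, 323 and 112 in HD, 16.5-fold higher (adjusted p = 2.13e-06). miR-3619-3p was undetected in every cell library and every LD library and read 186, 171 and 119 in HD, at least 15.2-fold above the cells' floor (log2 change 3.93 ± 0.27 SE, adjusted p = 3.89e-07). Together with miR-1224-5p, miR-1228-3p, miR-1288 and miR-3188, they were detected on all HD arrays and on no LD array. All of these members had entered the test only through HD.

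Among the next rises, miR-1914-3p went from 20.4, 21.6 and 21.3 in cells to 362, 194 and 178 in HD, 11-fold. miR-1207-5p rose 9.46-fold, from 12.6, 10.6 and 10.5 to 99.6, 185 and 64.3. miR-3141, detected on 1 cell array at 12.1, read 68.9, 232 and 69.8 in HD, 9.37-fold higher with all libraries and, at a log2 change of 2.63 in place of 3.23, lower without HD 2. In each of these 3 members the lowest HD library lay above the highest cell library, though miR-3141 had entered the test only through HD.

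miR-1908 read 128, 150.1 and 72.7 in cells and 775, 796 and 393 in HD, and rose 5.58-fold without overlap (adjusted p = 0.000441). miR-3197 read 65.6, 51.9 and 59.2 in cells and 398, 389 and 142.2 in HD, a 4.78-fold rise (adjusted p = 0.000627) that was not called with the shared-probe scaling, at a log2 change of 0.73. miR-1469, which lies within NR2F2, the gene of a nuclear receptor, read 41.0, 50.4 and 33.8 in cells and 179.7, 106 and 64.2 in HD. Its 2.59-fold rise (adjusted p = 0.00884) was no longer called without HD 1, at a log2 change of 0.87, and turned to -0.16 with the shared-probe scaling.

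The calls of the weakest rises ended when single libraries were left out, in part with a change of nearly the same size. miR-1288 lost its call without cell 2 (log2 change 0.82), cell 3 (1.03), HD 2 (0.70) or HD 3 (0.93), and miR-3937 without cell 1 (0.98) or HD 1 (0.78). miR-3154 lost its call without cell 2 (0.94), cell 3 (0.95) or HD 2 (0.75). miR-1343 lost its call without cell 1 (1.02), cell 2 (1.10), cell 3 (0.71), HD 1 (0.58), HD 3 (1.07) or LD 2 (0.94). In the shared-probe scaling these 4 members and miR-1181 turned below 0 without a call, and miR-1268a, miR-3188 and miR-3918 were no longer called, at log2 changes of 0.53, 0.07 and 0.24.

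The members that fell in HD were few. Members whose sequence lies in another small RNA, a list of 6 members with 4 tested, were all 4 called lower in HD, where 49.4% of all probes were, though with the spike scaling 2 of the 4 were called higher. These were miR-3607-3p, miR-3607-5p and miR-3653, in small nucleolar RNA sequence, and miR-1973, in sequence of mitochondrial ribosomal RNA. The miR-3607 arms and miR-3653 had entered only through the cells and miR-1973 through cells and LD, so their count supports nothing. Of the untested members of the list, miR-1248 read 22.46 and 20.94 in cells 1 and 2 only. miR-1292-3p was undetected in cells and read 13.97 in HD 2, 48.61 in HD 3 and 22.39 in LD 1. miR-1973 read 217, 228 and 193 in cells and was undetected in HD, at least 17.5-fold lower (log2 change -4.13 ± 0.43 SE, adjusted p = 7.62e-06).

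miR-3607-3p read 125.5, 264 and 143.96 in cells and was undetected on all 6 extracellular arrays, at least 13.91-fold lower in HD (adjusted p = 1.42e-06). miR-3607-5p, the other arm, read 24.3, 37.2 and 27.4 in cells, and miR-3653 read 24.2, 52.7 and 57.0, and neither was detected on an extracellular array. Their cell means were at least 2.41-fold and 3.45-fold above the HD floor (adjusted p = 0.00192 and 0.000837). With the spike scaling the log2 change of miR-3607-3p was -0.87 and not called, while miR-3607-5p and miR-3653 were called higher in HD, at 1.66 and 1.14.

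The transposable element list, with 5 members, had 3 tested, of which miR-1268a and miR-1268b, whose sequences are nearly the same, were called higher in HD (30.5% of all probes were) and miR-1273g-3p lower (49.4% of all). miR-1273g-3p read 2404, 2513 and 1545 in cells and was undetected in HD, at least 174-fold lower (log2 change -7.44 ± 0.36 SE, adjusted p = 1.00e-07). This was the largest difference of any member in any of the 3 comparisons. miR-3135b read 145, 143 and 74.8 in cells and was detected on 1 HD array, at 13.2. It was 9.17-fold lower in HD (adjusted p = 6.8e-06), with the other HD values standing at the floor. With the spike scaling its log2 change was -0.27 and not called. miR-1587 read 37.1, 36.5 and 30.3 in cells and was undetected in HD, at least 2.85-fold lower (adjusted p = 0.000343), and was called higher in HD, at a log2 change of 1.42, with the spike scaling. It had entered the test only through the cells.

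**Figure D3:**
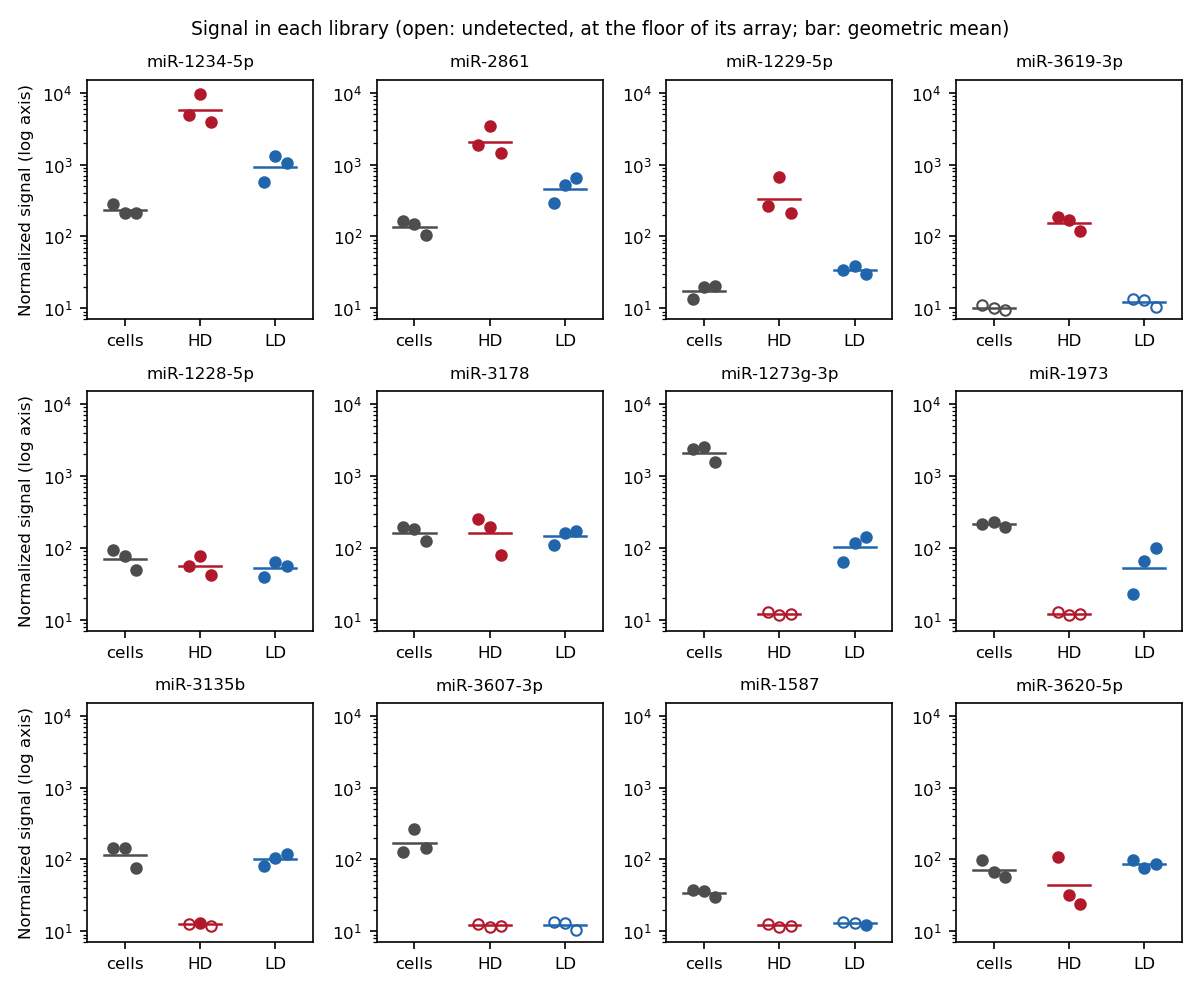
Normalized signal (y axis, log scale) of 12 members in each library of cells, HD and LD, with open symbols for undetected probes at the floor of their array and bars for geometric means. miR-1234-5p and miR-2861 are ordered cells, LD, HD without overlap, miR-3619-3p is detected in HD only, and miR-1273g-3p, miR-1973 and miR-3607-3p are undetected in HD. With the spike scaling, miR-1587 was higher in HD.

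Of the 12 members without a call in HD, 6 were detected on all 9 arrays. miR-3178 read 193, 184 and 123 in cells, 255, 197 and 79.6 in HD and 110.2, 161 and 174 in LD. The 3 groups overlapped, with a log2 change in HD of -0.04 ± 0.40 (SE, adjusted p = 0.930). miR-1247-3p, from the imprinted region around DIO3 (it lies within the span of DIO3OS), read 32.0, 23.3 and 17.4 in cells, 20.3, 31.2 and 51.7 in HD and 30.5, 51.7 and 46.4 in LD. It was not called in HD (log2 change 0.45 ± 0.40 SE) but was without cell 1, at 0.95. miR-3180 was called higher without cell 1 (0.90), and miR-3663-3p lower without cell 3 (-1.59) or HD 1 (-1.27).

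miR-3620-5p, whose span lies in ARF1, the gene of a small GTPase of the Golgi, read 99.4, 66.0 and 56.2 in cells and 106, 32.4 and 24.1 in HD. HD 1 lay above all cell libraries and the other HD libraries below them, so the change of -0.72 ± 0.37 (log2, SE) was not called. Without HD 1 it was -1.20 and called. The signals of miR-1228-5p and miR-3178 were called higher in HD by quantile normalization, at log2 changes of 0.86 and 0.74, and lower with the shared-probe scaling, at -1.87 and -1.57.

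In LD against cells, fewer members differed, and by less. Of the 46 tested members, 9 were called higher (16.8% of all probes were), 6 were called lower (44% of all), and 31 did not pass. The median log2 change was 0.21 over the members and -0.54 over all tested probes. It was -1.95 over the probes numbered below 1000 or let-7. Over the lower-numbered and higher-numbered part of the entries from 4000 upward it was 0.26 and 0.51. Rises ran from 1.80-fold to 3.92-fold and falls from 2.39-fold to 20.5-fold, and all 15 called members moved the same way in all 3 cultures. Groups did not overlap for 10 members that stood higher in LD and 8 that stood lower, against 21% and 46.1% of all probes. With the shared-probe scaling 2 members were called higher and 15 lower, with the spike scaling 41 and 2, and without scaling 5 and 2. The shared-probe and spike scalings shifted the median of all probes by -0.77 and 2.27.

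miR-1234-5p, with every LD library above every cell library, rose 3.92-fold (log2 change 1.97 ± 0.38 SE, adjusted p = 0.00108). It was the 1 rise in LD that was called under every alternative in which it was tested. miR-2861 read 290.4, 515 and 640.0 in LD and rose 3.35-fold (log2 change 1.74 ± 0.39 SE, adjusted p = 0.00272), with LD 1 the lowest but still above all cell libraries. miR-1469 read 90.0, 143.9 and 158 in LD, without overlap, and rose 3.08-fold (adjusted p = 0.00489). With the slide as a random block beside the culture, a setting added after the data were seen, only miR-1234-5p was still called higher.

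miR-1908 read 158, 504 and 451.4 in LD, 2.96-fold above cells (adjusted p = 0.0113). LD 1 lay just above the highest cell library, and the call ended without cell 2 (log2 change 1.54), cell 3 (1.31) or LD 2 (1.45), while without LD 1 the change was 2.22. miR-3180 read 22.2, 45.1 and 34.7 in LD and was detected on 2 cell arrays, at 21.1 and 10.9. Its 2.46-fold rise (adjusted p = 0.0197) was lost without cell 2 (log2 change 0.83), cell 3 (1.2) or LD 2 (1.14).

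miR-1237-5p read 381, 585 and 581 in LD, 2.04-fold above cells and without overlap (adjusted p = 0.0187). The call ended without cell 2 (log2 change 0.99), cell 3 (0.92), LD 2 (1.00) or LD 3 (0.72). miR-1229-5p and miR-1227-5p rose 1.95-fold and 1.84-fold, from the cell values above to 34.4, 39.0 and 30.0 and to 59.1, 42.6 and 45.4. For miR-1229-5p the call ended without cell 1 (log2 change 0.84), cell 2 (0.75), LD 1 (0.78), LD 2 (1.16) or LD 3 (0.95). For miR-1227-5p it ended without cell 1 (0.66), cell 2 (0.97), cell 3 (1.01), LD 1 (0.71) or LD 3 (0.78).

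miR-1909-3p read 20.7, 36.1 and 37.6 in LD and overlapped the cells. Its 1.80-fold rise (adjusted p = 0.0347) ended without cell 1 (log2 change 0.86), cell 2 (0.87), cell 3 (0.83) or LD 3 (0.57). Among mirtrons, 4 of the 8 tested were called higher in LD, where 16.8% of all probes were, and none lower, where 44% of all were. They were miR-1234-5p, miR-1237-5p, miR-1229-5p and miR-1227-5p. With the shared-probe scaling 1 mirtron was called higher and 2 lower, with the spike scaling all 8 were higher, and without scaling 1 was.

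The 6 members called lower in LD were miR-1273g-3p, miR-1973, miR-1587, miR-3653 and both arms of miR-3607, measured against the same cell libraries as HD. miR-1273g-3p read 63.8, 118 and 143 in LD, 20.5-fold below cells (log2 change -4.36 ± 0.36 SE, adjusted p = 8.31e-06), and all LD libraries lay far below all cell libraries. miR-1973 read 22.7, 65.7 and 101 in LD and was 3.99-fold below cells (adjusted p = 0.00240). Without LD 1 its log2 change was -1.36 in place of -2.0, and with the spike scaling it turned to 0.28 and was not called.

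miR-3607-3p, miR-3653 and miR-3607-5p were undetected in LD, at least 13.8-fold, 3.42-fold and 2.39-fold below cells (adjusted p = 8.31e-06, 0.00134 and 0.00304). miR-1587 was detected on 1 LD array, at 12.2, and was 2.67-fold lower (adjusted p = 0.000871). miR-3607-3p, miR-3653, miR-3607-5p and miR-1587 had all entered the test only through the cells. With the spike scaling, miR-1587 and miR-3653 turned to 0.85 and 0.50 without a call, and miR-3607-5p was called higher, at 1.02. miR-3135b read 81.1, 105 and 120.5 in LD, within the range of the cells, with a log2 change of -0.20 ± 0.33 (SE, adjusted p = 0.614). That direction depended on the scaling: it was called lower with the shared-probe scaling (-0.97) and higher with the spike scaling (2.07), quantile normalization (0.89), normexp (0.42) and the authors' log2 table (0.35).

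Several members without a call in LD were called when single libraries were left out. miR-3197 read 75.7, 161 and 134 in LD, above all cell libraries, at a log2 change of 1.00 ± 0.43 (SE, adjusted p = 0.0647), and was called without LD 1 (1.49) and, at the same log2 change, without HD 1 or HD 3. miR-3960 read 1034, 2162 and 1759 in LD and was called higher without LD 1 (1.13). miR-1247-3p was called higher without cell 1 (1.34), and miR-1233-1-5p, at 80.3, 160 and 123 in LD, was called lower without cell 2 (-0.93). miR-3195 was called higher without LD 1 (1.2), and miR-3154 and miR-3663-3p lower without LD 3 (-0.91 and -1.50).

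In LD against HD, the light and the dense fractions were compared with each other. The 46 tested members again include the 12 that entered only through HD, so the counts describe the list. Of the 46 members, 22 were called lower in LD (26.3% of all probes were) and 4 higher (25.7% of all), while 20 did not pass. The median log2 change was -0.85 over the members and 0.01 over all probes. It was 0.14 over the probes numbered below 1000 or let-7. Over the lower-numbered and higher-numbered part of the entries from 4000 upward it was -0.17 and -0.64. Groups did not overlap for 21 lower and 3 higher members, against 24.6% and 30.8% of all probes. The shared-probe scaling, which shifted the median of all probes by 0.76, gave 13 lower and 8 higher, the spike scaling 27 lower and 3 higher, and no scaling 10 lower and 3 higher.

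The 8 largest falls were of miR-3622a-5p, miR-3619-3p and miR-1224-5p, undetected in LD and at least 15.2-fold, 12.8-fold and 12.7-fold lower, and of miR-3158-5p, miR-1909-3p, miR-1914-3p, miR-1229-5p and miR-3141, at 12.4-fold, 11.7-fold, 9.98-fold, 9.74-fold and 8.20-fold (adjusted p from 4.33e-06 to 0.00014). miR-1914-3p read 34.0, 24.1 and 15.4 in LD, and miR-3158-5p and miR-3141 were each detected on 1 LD array, at 22.1 and 11.5. None of these 8 members overlapped between the fractions, and all 8 were called under every alternative in which they were tested. miR-3622a-5p, miR-3619-3p, miR-1224-5p, miR-3158-5p and miR-3141 had entered only through HD, so for them this supports nothing. For miR-3141 the log2 change was -3.04 with all libraries and -2.44 without HD 2.

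miR-1234-5p was 6.19-fold lower in LD than in HD (log2 change -2.63 ± 0.38 SE, adjusted p = 0.000233) and miR-2861 was 4.56-fold lower (-2.19 ± 0.39 SE, adjusted p = 0.00086). miR-1227-5p was 4.84-fold lower and miR-1268a 3.10-fold. Among the 8 tested mirtrons, miR-1224-5p and miR-1228-3p had entered only through HD. Of the 8, 5 were called lower in LD, where 26.3% of all probes were, and none higher, where 25.7% of all were. With the shared-probe scaling 4 were called lower, with the spike scaling 6 and without scaling 3, and none higher under any of these. miR-1908, at log2 -0.92 ± 0.45 (SE, adjusted p = 0.120), was not called, with LD 2 and LD 3 inside the range of HD, and was called without LD 3, at -1.46, and with the slide as a block, at -1.98.

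The 4 members called higher in LD than in HD were miR-1273g-3p, miR-3135b, miR-1973 and miR-3620-5p. miR-1273g-3p and miR-1973 were undetected in HD, at least 8.47-fold and 4.39-fold below LD (log2 changes 3.08 ± 0.36 and 2.13 ± 0.43 SE, adjusted p = 5.37e-05 and 0.00201). Without LD 1, the change of miR-1973 was 2.78. miR-3135b was 7.98-fold higher in LD (log2 change 3.00 ± 0.33 SE, adjusted p = 3.7e-05). miR-3620-5p read 97.5, 76.1 and 87.3 in LD, inside the range of HD, and was higher in 2 of 3 cultures (1.98-fold, adjusted p = 0.0477). Its call ended without cell 1 (0.99), cell 2 (0.99), cell 3 (0.99), HD 2 (0.85), HD 3 (0.64), LD 2 (0.94) or LD 3 (0.68).

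Since LD 1 shared a slide with the HD libraries, the fractions could also be compared within that slide, which gives a value with 1 LD library. LD 1 stood below the HD mean by log2 changes of -3.79 for miR-3622a-5p, -4.11 for miR-1909-3p, -2.77 for miR-1914-3p, -3.32 for miR-1234-5p and -2.85 for miR-2861. It stood above it by 2.40 for miR-1273g-3p, 2.68 for miR-3135b, 0.91 for miR-1973 and 1.16 for miR-3620-5p. With the slide as a block in place of culture, 16 members were called lower in LD and 2 higher, and the calls of miR-1973 and miR-3620-5p ended.

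The calls of weaker falls in LD also ended when single libraries were left out. miR-3197 lost its call at the same log2 change, -1.25, without cell 1 or cell 3, and without HD 1 (-0.88), HD 2 (-1.08), LD 1 (-0.77) or LD 2 (-1.40). miR-3937 lost it without HD 1 (-0.75), HD 2 (-1.13), LD 1 (-0.93) or LD 2 (-0.96), miR-1343 without HD 1 (-0.98) or LD 1 (-0.90) and miR-3918 without LD 2 (-0.98). None of these 4 was called with the shared-probe scaling either. Other members were called only once a library was left out: miR-1233-1-5p lower without cell 2 (-0.79) or HD 3 (-1.03), miR-1288 and miR-2392 lower without HD 1 (-1.17 and -1.12), and miR-3180-3p and miR-3960 lower without LD 3 (-0.92 and -1.03). miR-3180 was called higher without cell 1 (0.97) or LD 1 (1.32), and miR-3195 without HD 1 (1.5) or LD 1 (1.78).

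**Figure D4:**
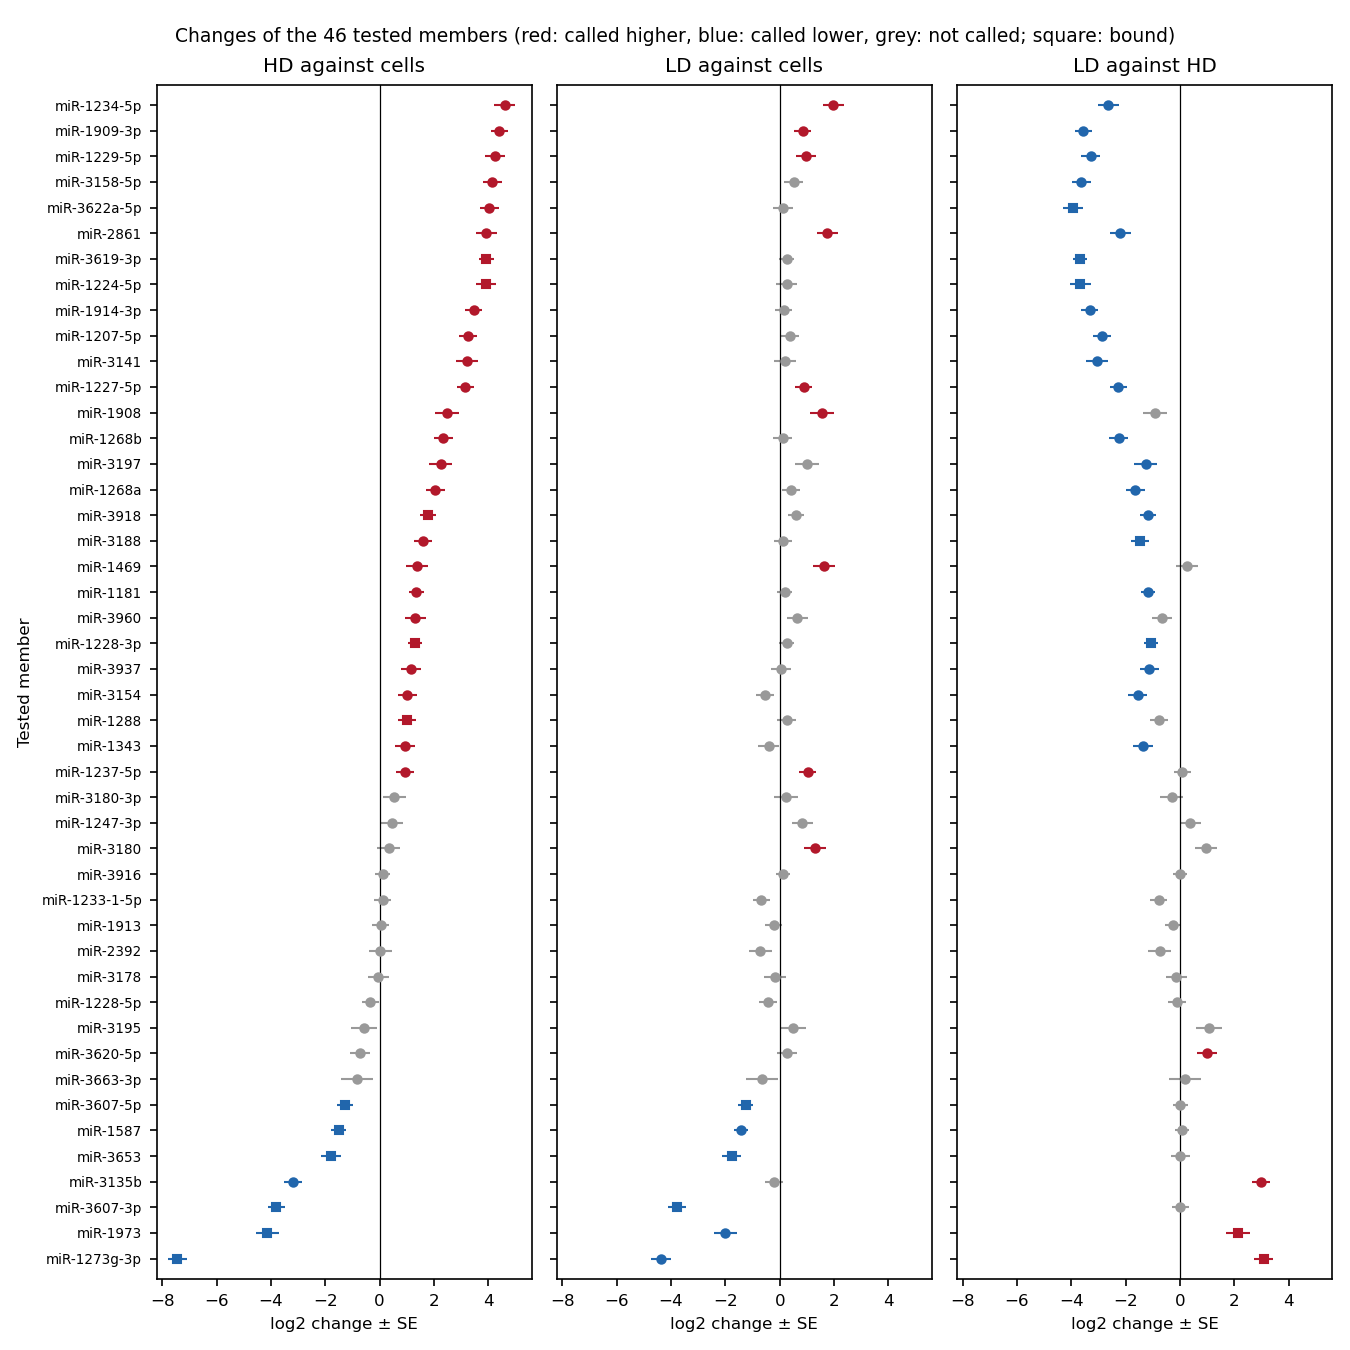
Log2 change ± SE (x axis) of the 46 tested members (y axis, ordered by HD against cells) in the 3 comparisons, in red where called higher, blue where called lower and grey where not called, with squares for members undetected on all arrays of the lower group. HD against cells spans -7.44 to 4.60, LD against cells -4.36 to 1.97 and LD against HD -3.93 to 3.08. With the shared-probe scaling all points shift by -1.53, -0.77 and 0.76 log2 units, and with the spike scaling by 2.93, 2.27 and -0.66.

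The order of the group means is given as a description. In 24 of the 46 tested members the means were ordered HD, LD, cells from high to low, and in 8 they were ordered cells, LD, HD. The other 14 were spread over the remaining orders, 5 with LD highest and cells lowest, 5 with HD highest and LD lowest, and 2 in each of the others. In many of these members the neighbours in the order did not differ beyond their spread: of the 46, 31 were not called between LD and cells and 20 not between LD and HD.

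Both arms of a hairpin were members in 10 cases, and for 7 of these at least 1 arm could be tested. The arms of miR-1228, a hairpin that has been proposed as a reference for circulating miRNA, are described first. miR-1228-5p read 94.2, 77.8 and 48.9 in cells, 55.6, 76.5 and 42.0 in HD and 39.8, 64.0 and 56.4 in LD, with all 3 groups overlapping. miR-1228-3p was detected in HD only.

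In miR-1229, miR-1234, miR-1247, miR-1909 and miR-1914, 1 arm was detected on all 9 arrays and the other on 2 to 4. In miR-1225, miR-3177, miR-3607 and miR-3678 each arm was detected on 2 or 3 arrays. miR-1229-3p was detected on 4 arrays at 11.2 to 16.5, and its values in cells and HD overlapped, while the other arm rose in HD. miR-1234-3p was detected on 4 arrays, 1 in cells, 1 in HD and 2 in LD, at 13.5 to 21.0. miR-1909-5p was detected on 1 HD and 1 LD array, at 14.5 and 14.2, and miR-1914-5p on 2 cell arrays and 1 HD array, at 10.3 to 16.3. Both arms of miR-3607 were detected on all cell arrays and on no other array. The arms are read by different probes, so their levels are not set against each other.

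**Figure D5:**
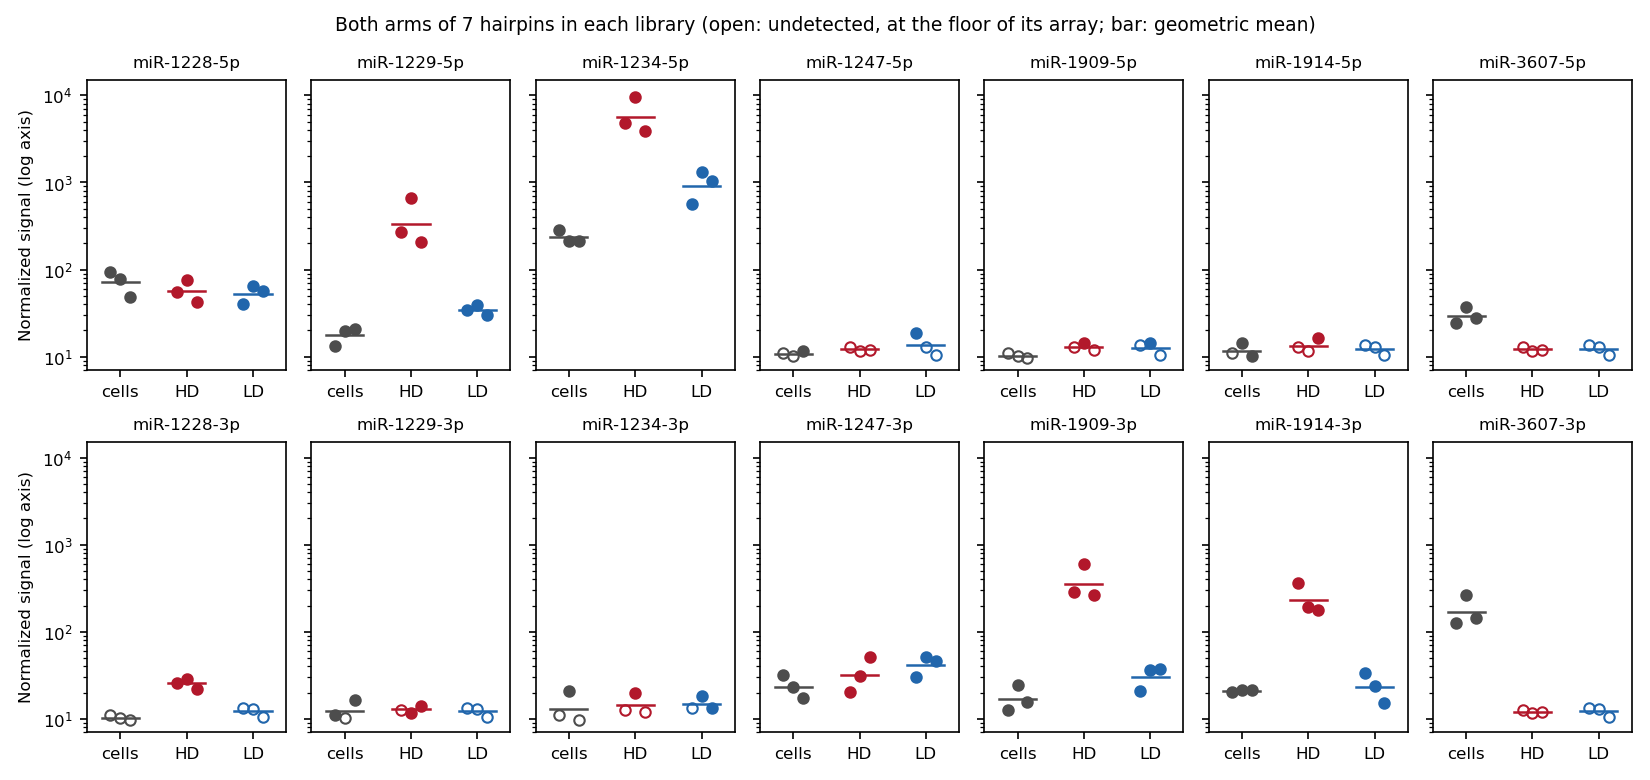
Normalized signal (y axis, log scale) of the 5p arm (upper row) and the 3p arm (lower row) of 7 hairpins in each library of cells, HD and LD, with open symbols for undetected probes at the floor of their array and bars for geometric means. In miR-1229 and miR-1234 the 5p arm, and in miR-1909 and miR-1914 the 3p arm, is higher in HD, while the other arm stays between 9.60 and 21.0.

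Seeds were shared by 3 pairs among the tested members with a sequence. miR-1268a is the start of miR-1268b, which has 2 more bases, and both lie in the transposable element list. miR-1268a read 25.4, 23.8 and 18.6 in cells, 136, 111 and 54.1 in HD and 24.5, 37.6 and 29.6 in LD, and rose 4.17-fold in HD (adjusted p = 0.000212). miR-1268b read 18.6, 16.3 and 13.0 in cells and 97.0, 71.3 and 76.0 in HD, rose 5.11-fold (adjusted p = 0.000117), and was detected on 1 LD array, at 27.9. How far either probe also reads the other sequence was not tested. On LD 1 and LD 2, where miR-1268a read 24.5 and 37.6, miR-1268b was undetected.

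miR-3180 and miR-3180-3p are likewise nearly identical, the second being 3 bases longer. miR-3180-3p read 34.1, 35.4 and 11.9 in cells, 35.5, 69.3 and 17.8 in HD and 21.2, 33.0 and 33.0 in LD, overlapping throughout. It was not called in any comparison, while miR-3180 was called higher in LD than in cells, a call that ended without single libraries as given above. miR-1587 and miR-3620-5p share the seed UGGGCUG but not the rest of the sequence, and miR-1587 fell in both fractions while miR-3620-5p was called in neither against cells. miR-1587 had entered the test only through the cells. A difference between the changes of miR-1587 and miR-3620-5p was not tested.

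The hairpins conserved among mammals gave 7 members, of which miR-1224-5p and miR-1247-3p could be tested. The imprinted cluster of chromosome 14 and the hairpins antisense to another hairpin gave 1 member each, miR-1185-2-3p and miR-3065-3p, neither tested, and the primate cluster of chromosome 19 gave none. miR-1185-2-3p was detected on 2 cell arrays, at 11.6 and 10.2, and miR-3065-3p on 1 cell array at 11.3 and 1 LD array at 16.

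The remaining 63 members were detected on all 3 arrays of no group and were not tested in the main fit. Their 158 values ran from 9.81 to 57.8 with a median of 15.4, and 4 values were 50 or more. Of the 63, 42 were detected on 2 arrays, 11 on 3, 9 on 4 and 1 on more. Detection on 2 arrays was spread over 2 groups, 1 array in each, for 27 of them. All detected values lay in the cells for 7, in HD for 7 and in LD for 1, miR-1225-3p.

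Examples in alphabetical order among those on exactly 2 arrays are miR-1178-3p (53.2 in cell 2 and 14.8 in HD 2), miR-1185-2-3p, miR-1203 (15.6 in cell 2 and 19.3 in LD 1) and miR-1225-3p (17.1 in LD 2 and 10.5 in LD 3). When all 642 probes detected on at least 2 arrays were tested, 30 of the 109 members were called higher in HD than in cells and 7 lower, where 17.3% and 25.5% of all probes were. The call of miR-1343 ended there (adjusted p = 0.0738), and 4 calls were added, those of miR-1290 (log2 change 1.43 ± 0.38 SE), miR-1238-5p (1.17 ± 0.32), miR-1225-5p (0.98 ± 0.33) and miR-3689d (0.76 ± 0.25). miR-1290 read 55.9 and 31.7 in HD 1 and HD 2 and was undetected elsewhere. miR-1225-5p and miR-1238-5p are in the mirtron list. miR-1238-5p read 46.1 and 16 in HD 1 and HD 3 and 16.1 in cell 1, with its HD 2 value marked as not OK and left out of the fit.

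Within a group, the members tended to be low or high in the same library. Of the 34 members detected on all 3 HD arrays, HD 3 was the lowest library in 28 and HD 2 the highest in 19. Of the 33 members detected on all cell arrays, cell 3 was the lowest in 22, and of the 23 detected on all LD arrays, LD 1 was the lowest in 19. The median SD over these members was 0.34 log2 units in cells, 0.67 in HD and 0.48 in LD. HD 3 was also the array with the fewest detected miRNA probes, 254, and LD 1 was the LD array with the fewest, 303.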

How the data were processed

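Per the labels' protocols, Hy5-labelled RNA of 9 libraries was hybridised to 1-colour arrays whose probes hold locked nucleic acids. Each deposited array file lists the intensity as scanned, after background subtraction and after the authors' global normalization, per the file headers. A normalized value is missing where a probe was undetected. The lowest detected value of an array, 9.60 to 13.5 in normalized units, lay above the subtracted background. A log2 table of the whole series was deposited too and served as an alternative. The scanner is not given in the sources used here.

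The log2 of the authors' normalized intensity was fitted with limma 3.58.1 (R 4.3.3) on the groups with culture as a block, over all 9 libraries. An undetected value took the floor of its array, that is its lowest detected value, and values not marked OK were left out. Tests covered 334 probes that a whole group of 3 arrays detected, and p-values were adjusted over them by the Benjamini-Hochberg method. The culture pairing rests on the design text of the series alone: deviations of same-numbered libraries from their group means correlated at only -0.284 to 0.212. The number of arrays limits the precision. The p-values rest on the spread left between libraries once group and culture are taken out, in 3 cultures of 1 line. Where no array of a group detected a member, its spread there is only that of the array floors. That SD was 0.10 log2 units in cells, 0.07 in HD and 0.20 in LD. The fit was tested on simulated data. Alternatives were other scalings, normalizations, filters, treatments of undetected values, slide blocks and leaving out each library or culture.

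Members and lists were chosen with earlier results of these data known. Named were the 8 largest rises and falls among called members of each comparison, members detected on all arrays, members of the lists and up to 4 examples at the edge of the rule; other members are named because a library or setting changed their call or because they passed a wider filter, chosen after their values were seen.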

Additional observations from a re-analysis of the deposited data

How the results depend on the processing

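The probes tested in the main fit were those detected on 3 arrays of a group, so 63 of the 109 members, near the limit of detection, have no test there. With the wider filter, 4 of these 63 were called in HD against cells and 0 in each of the other comparisons. A missing call near that limit does not show that a difference is absent. Without the culture term (no replicate block, so no pairing), 26 members were called higher and 7 lower in HD against cells, 7 and 6 in LD against cells, and 3 and 22 in LD against HD, and no call of a named member turned. The calls that ended were those of miR-1343 in HD against cells (adjusted p = 0.0740), of miR-1229-5p (0.0526) and miR-1909-3p (0.0793) in LD against cells and of miR-3620-5p in LD against HD (0.104), each at the same log2 change. Leaving out 1 library or culture gave 20 to 27 higher and 7 to 9 lower members in HD against cells, 2 to 10 and 6 to 8 in LD against cells, and 2 to 6 higher and 15 to 25 lower in LD against HD. For named members, 2064 of the values under other settings were counted as the same. These include changes of direction where neither setting gave a call, and 14 within-slide values that have no test. Of the other values, 154 lost the call, 75 gained one and 33 were reversed with a call before or after. A further 17 untested values moved by more than 1 SD. Causes were not tested.

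Counts of called members moved with the scaling and with the stricter filter. In HD against cells, 14 were higher and 19 lower with the shared-probe scaling, 42 and 2 with the spike scaling, 12 and 0 with the stricter filter, which keeps 18 members, 4 lower without scaling and 2 lower with undetected values left missing. In LD against cells, 2 were higher and 15 lower with the shared-probe scaling, 41 and 2 with the spike scaling, 5 and 2 without scaling, 18 higher with quantile normalization, 14 with normexp, 3 when 1 was added before log2 and 1 with the slide as a random block beside the culture, a setting added after the data were seen. Lower members were 2 with undetected values left missing and 0 with the stricter filter. In LD against HD, 8 were higher and 13 lower with the shared-probe scaling, 1 and 8 with the stricter filter, 2 higher with the slide as a fixed block, 10 lower without scaling and 11 lower with undetected values left missing.

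Reversed log2 changes in HD against cells were, with the spike scaling, 1.14 for miR-3653, 1.42 for miR-1587, 1.66 for miR-3607-5p, 2.59 for miR-1228-5p, 2.89 for miR-3178, 2.21 for miR-3620-5p, 2.34 for miR-3195 and 2.10 for miR-3663-3p. With the shared-probe scaling they were -1.42 for miR-1233-1-5p, -0.60 for miR-1237-5p, -1.08 for miR-1247-3p, -0.16 for miR-1469, -0.99 for miR-3180-3p, -0.21 for miR-3960 and -0.21 for miR-1228-3p, and, beside the members given in the results, -1.49 for miR-1913, -1.50 for miR-2392, -1.2 for miR-3180 and -1.42 for miR-3916. Under quantile normalization, normexp and the authors' log2 table, miR-1228-5p stood at 0.86, 0.30 and 0.21 and miR-3178 at 0.74, 0.40 and 0.34.

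In LD against cells, the spike scaling reversed miR-1973 (0.28), miR-3653 (0.50), miR-1587 (0.85), miR-3607-5p (1.02), miR-1228-5p (1.83), miR-1233-1-5p (1.60), miR-3178 (2.10), miR-3135b (2.07), miR-1343 (1.87), miR-1913 (2.05), miR-2392 (1.56), miR-3154 (1.74) and miR-3663-3p (1.62). Under quantile normalization, normexp and the authors' log2 table, miR-1228-5p stood at 0.68, 0.23 and 0.18 and miR-3178 at 1.00, 0.56 and 0.46. When 1 was added before log2, miR-3916 turned to -2.35 in HD and -3.61 in LD against cells. In LD against HD, normexp turned miR-3960 to 0.67. Background was handled differently in the authors' log2 table. The members' median change in HD against cells was 0.28 there, against 1.09 in the main fit. The change of miR-3960 was larger there, at 1.99 against 1.32. The cause of these differences was not tested.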
